A study of Mus musculus with 20 samples.

Results

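The comparison described here set 3T3-L1 cells at days 2 and 3 after hormonal induction of fat cell differentiation against the same culture series at 12 and 24 hours. It used 4 of the 10 time points of the series, each measured on 2 Affymetrix array types (A and B), so that 8 of the 20 arrays enter it. The earlier side had 12 hours and 24 hours after induction, and the later side had day 2 and day 3. Each time point was 1 sample per array type with no replicate, so the 2 time points of a side are neighbours in time and the spread between them includes real change. 3T3-L1 is an established mouse fibroblast line that becomes a fat-storing cell when confluent cultures receive MDI, a cocktail that standardly holds dexamethasone, insulin and the phosphodiesterase inhibitor isobutylmethylxanthine. All 4 time points were induced cells of this 1 line, and none of the samples was an uninduced culture of the same age. Outside the comparison lay 6 time points, namely the preconfluent and confluent cultures that preceded induction, 6 hours, and days 4, 7 and 28.

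Confluent 3T3-L1 cells given MDI first make the early factors C/EBP beta and C/EBP delta and re-enter the cell cycle for a short phase of division known as clonal expansion. They then leave the cycle and make PPAR gamma and C/EBP alpha, which drive each other and most genes of lipid storage. Around the same time the cells lose the spread fibroblast shape and much of the collagen-rich matrix that goes with it.

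The values were deposited as a linear intensity per probe set, a measure of the brightness of a group of probes for 1 transcript. Means that leave out the lowest and highest 2% of values differed little between arrays, from 500.9 to 501.1, so the deposited arrays already lay on a common scale. Values below a floor of 136 on array A and 156 on array B were set to it before taking log2, which affected 43.7% to 45.9% of array A's probe sets and 54.6% to 55.4% of array B's at the 4 time points. In total 7582 probe sets were bright enough in at least 2 of the 10 time points to be tested, of which 4823 had 1 gene symbol, for 4115 genes. As a check of RNA quality, the Gapdh control of array A read at its 3-prime end relative to its 5-prime end gave a ratio of 1.27 and 1.6 at days 2 and 3, against 1.43 and 1.45 at 12 and 24 hours. The Gapdh ratio on array B lay between 0.762 and 0.773 at all 4 time points. The same ratio for the beta-actin control was 1.41 and 1.72 at days 2 and 3, against 1.41 and 1.45 at 12 and 24 hours, on array A, and 1.08 and 1.06, against 0.829 and 1.11, on array B.

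Days 2 and 3 differed from 12 and 24 hours in both directions to about the same extent. A probe set was called higher or lower when both later values lay on the same side of both earlier values and the mean log2 difference was at least 1, which is a 2-fold difference. By this description 304 probe sets were higher (4.01% of those tested) and 309 were lower (4.08%). Over the 4115 genes, each read from its brightest probe set, 189 were higher (4.59%) and 198 were lower (4.81%). By non-overlap alone, whatever the size, 18.9% of the genes were higher and 22.9% lower. The counts of gene lists below are to be read beside these shares. If the 4 values of a gene fell in random order without ties, separation in either direction would have a probability of 0.333. Non-overlap of a single gene is therefore weak evidence of a difference. The median log2 difference over all tested probe sets was -0.02, with quartiles of -0.31 and 0.23. Taken without sign, the median difference between the sides reached 0.32 for array A and 0.21 for array B. Neighbouring time points differed by a similar amount. From day 2 to day 3 the medians were 0.36 for A and 0.19 for B, and from 12 to 24 hours 0.36 and 0.21. The typical probe set thus differed between the sides about as much as between neighbours. The exact permutation test of 2 values against 2 can give no two-sided p below 0.333, so single genes were tested with limma, fitted to all 10 time points, with the spread taken from the 4 groups that hold 2 neighbouring time points.

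With limma's moderated test and Benjamini-Hochberg adjustment over both array types, 18 probe sets rose (0.237%) and 8 fell (0.106%) at an adjusted p under 0.05, all of them also called by size. Of the genes, 8 rose (0.194%) and 5 fell (0.122%). The words rose and fell are kept below for these genes, and higher or lower stands for a difference in size alone. With no replicates, each p sets a difference against the spread of neighbouring times alone, which may be technical as well as biological. The calls changed when 1 time point was left out: 1 probe set rose and 0 fell without 12 hours, likewise without 24 hours, while 22 rose and 3 fell without day 2, and 4 rose and 0 fell without day 3. Of these calls, 1 without 12 hours, 1 without 24 hours, 10 without day 2 and 3 without day 3 were among the 26 made on all time points. Where 0 fell, 253 probe sets were lower at an unadjusted p under 0.05 without 12 hours, 404 without 24 hours and 214 without day 3. None of these 13 genes kept its call without 12 hours (adjusted p of 0.115 to 0.391) or without 24 hours (0.0702 to 0.164). Cebpa, Cidec, Dgat2, Fabp4 and Ptx3 kept theirs without day 2, and Cidec and Dgat2 kept theirs without day 3. On all time points, 399 were higher and 403 lower at that unadjusted limit.

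**Figure D1:**
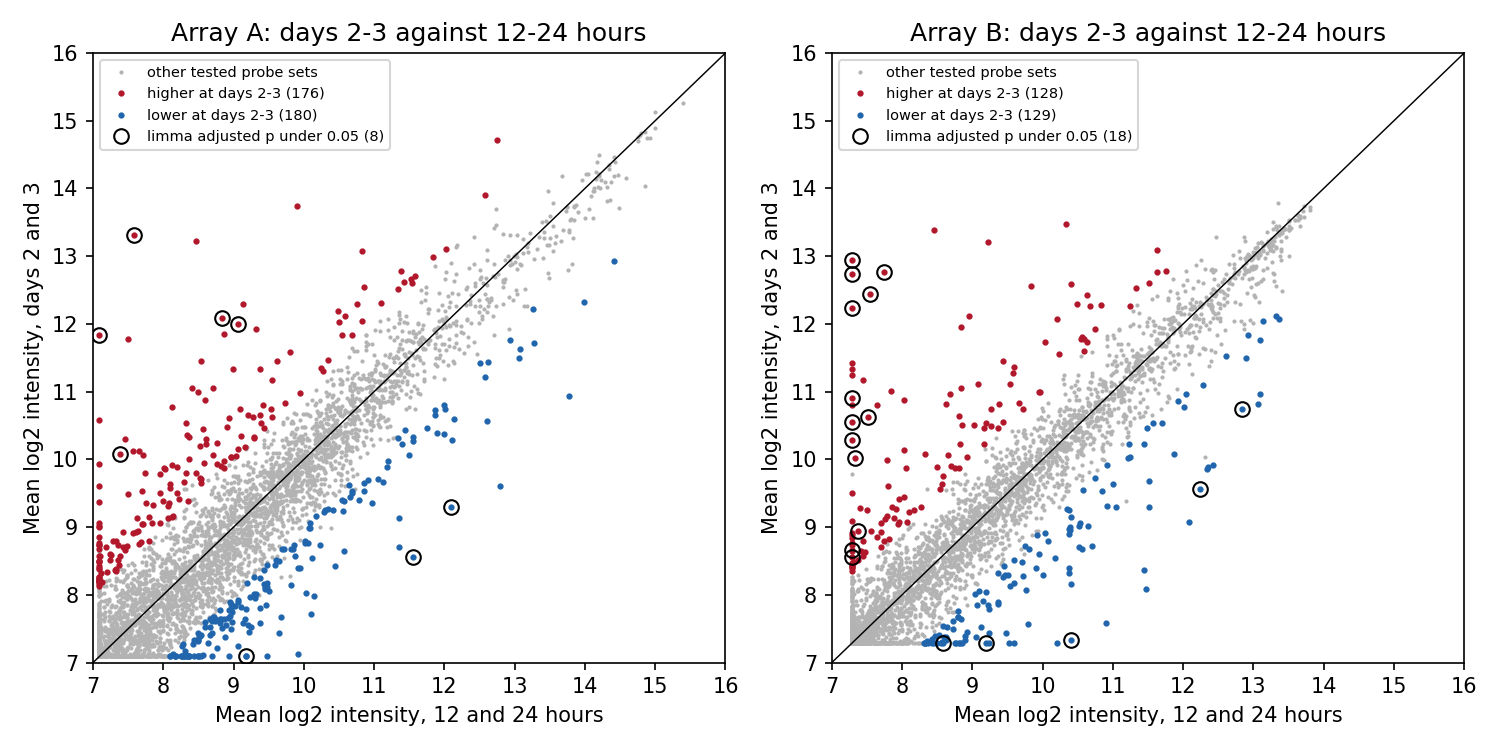
Each point is 1 tested probe set of array A (left) or array B (right), with its mean log2 intensity over days 2 and 3 on the vertical axis and over 12 and 24 hours on the horizontal axis. Red points are the 304 probe sets called higher by size, blue points the 309 called lower, and rings mark the 26 that passed limma's test; the points along the left and lower edges lie at the floor.

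Both adipogenic regulators at the centre of the programme were high at days 2 and 3 and near the floor before. Cebpa, which encodes C/EBP alpha, had intensities of 1050 and 1490 at days 2 and 3, against -35 and -229 at 12 and 24 hours. It rose at least 8.02-fold, by 3.00 ± 0.21 on the log2 scale (SE, 2 time points a side, limma adjusted p = 0.00775). Pparg, which encodes the nuclear receptor PPAR gamma, had 894 and 1410, against 17 and 267. Its difference of 2.56 ± 0.41 did not pass the test (adjusted p = 0.0599). Neither gene overlapped between the sides, and both stayed at or above their day 2 level at days 4, 7 and 28, with Cebpa between 1470 and 1990 and Pparg between 1180 and 1640.

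The earlier-acting factors did not show this step. Cebpb, which encodes C/EBP beta, had 9090 and 4500 at days 2 and 3, against 9240 and 8450 at 12 and 24 hours, so the sides overlapped and only day 3 was low. Without day 3 its log2 difference was 0.04 rather than -0.47. Cebpd, for C/EBP delta, had 1260 and 1330, against 1030 and 1810, also with overlap, and its difference of -0.08 became 0.33 without 24 hours. Of 13 tested genes on the list of adipogenic transcription factors, 4 were higher and 1 was lower, with a median of 0.44. Besides Cebpa and Pparg, the higher ones were Egr2, also called Krox20, a zinc finger factor of early adipogenesis, with 575 and 282 against 83 and 119, and Esrra, a nuclear receptor of mitochondrial genes, with 883 and 895 against 451 and 280. The lower one was Klf4, another zinc finger factor, named after its values were seen, with 79 and 103 against 413 and 262.

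**Figure D2:**
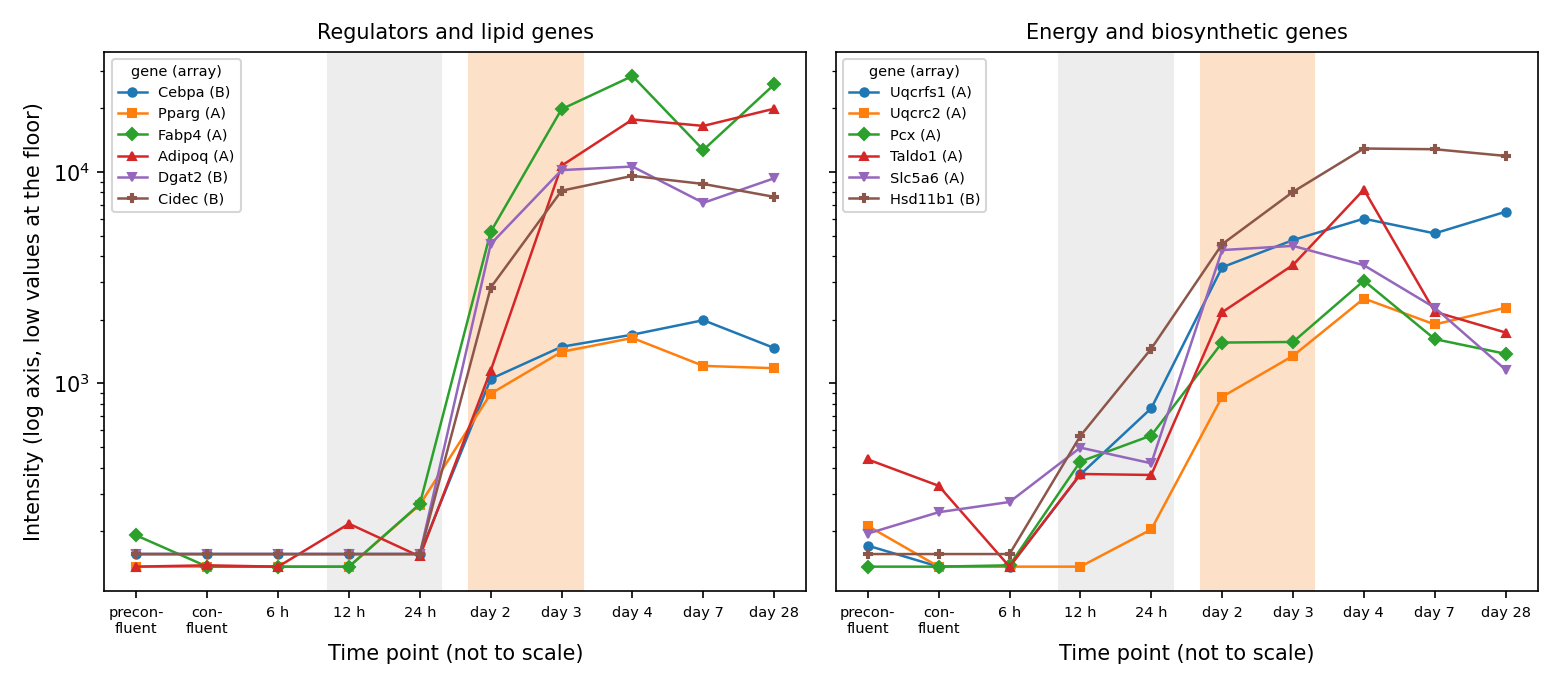
Deposited intensity on a log axis at the 10 time points, in order but not to scale, for 12 genes higher at days 2 and 3 (orange band) than at 12 and 24 hours (grey band), with values below the floor drawn at it and the array of each gene in the legend. Cebpa, Pparg, Fabp4, Adipoq, Dgat2 and Cidec sit at or near the floor up to 24 hours and stay high to day 28, while Slc5a6 is highest at day 3 and Taldo1 at day 4.

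Genes of lipid storage were higher as a group. Of 18 tested genes on the list of adipocyte lipid storage and hormones, 15 were higher and 0 were lower, with a median log2 difference of 2.82, against -0.02 over all 4115 genes. Over the 4 pairs of 1 later and 1 earlier time point the list's median ran between 1.99 and 3.94. Over the list as a whole, day 3 lay above day 2 for 15 of the 18 genes, by a median of 1.03. Since adipocyte genes had been seen to differ in these data before the list was written, its direction is a description and no independent evidence.

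Among them, 3 passed limma's test. Fabp4, the carrier protein of fatty acids in fat cells, had 5210 and 19800 at days 2 and 3, against 24 and 269 at 12 and 24 hours. It rose at least 53.1-fold, by 5.73 ± 0.69 on the log2 scale (adjusted p = 0.0215). Its probe set is marked by the maker as shared by a gene family and may also bind related transcripts. Dgat2, the enzyme of the last step of triglyceride synthesis, had 4560 and 10200, against -232 and -158, and rose at least 43.7-fold (log2 5.45 ± 0.40, adjusted p = 0.00775). Cidec, a protein of the lipid droplet surface that lets droplets fuse, had 2840 and 8150, against 31 and 99, and rose at least 30.8-fold (log2 4.95 ± 0.46, adjusted p = 0.021). All 3 were near the floor or below it at 12 and 24 hours and were higher at day 3 than at day 2.

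Other members of the list were separated without passing the test. Adipoq, the hormone adiponectin, had 1150 and 10700 at days 2 and 3, against 217 and 152 at 12 and 24 hours, so that most of the difference was reached at day 3 (log2 4.27, adjusted p = 0.135). Without day 2, the Adipoq log2 difference was 5.88 and the adjusted p 0.00636. Lipe, the hormone-sensitive lipase that releases stored fat, had 12600 and 14900, against 498 and 1840 (3.84, adjusted p = 0.148). It was already near its day 3 level at day 2, and stood at 15600, 20000 and 23100 at days 4, 7 and 28. Lpl, the lipoprotein lipase that frees fatty acids from circulating lipoproteins, had 20700 and 35200, against 6000 and 7880, so it was bright before commitment as well (1.97). The next genes were chosen after their values were seen. Gpd1, which makes glycerol 3-phosphate for triglycerides, had 677 and 11200 against -450 and -336, and Cd36, a fatty acid receptor, had 1110 and 5930 against -73 and -42. Retn, the hormone resistin, had 2740 and 9220 against 626 and 498. G0s2, an inhibitor of the lipase ATGL that is on none of the lists, had 1370 and 4340 against -58 and 52. The 3 list members without a call were Slc2a4, the insulin-dependent glucose transporter GLUT4, with 77 and 540 against 65 and 21, Mrap, the melanocortin receptor accessory protein, with 18 and 1170 against -123 and -85, and Mest, with 1170 and 496 against 6 and 729. For Slc2a4 and Mrap, day 2 was at the floor and day 3 was not.

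Enzymes that make fatty acids and the NADPH they need were higher at days 2 and 3 for 8 of 15 tested genes, with 0 lower and a median log2 difference of 1.03. By non-overlap alone, whatever the size, 12 of the 15 were higher and 1 was lower, against 18.9% higher and 22.9% lower over all genes. Taldo1, transaldolase of the pentose phosphate pathway, had 2170 and 3630 at days 2 and 3, against 373 and 369 at 12 and 24 hours (2.92). Tkt, transketolase of the same pathway, had 1540 and 2920, against 76 and 1290, so its sides lay close together (2.34). Both enzymes belong to the non-oxidative branch, which recycles pentoses. Elovl1, an elongase of long-chain fatty acids, had 5340 and 2870, against 740 and 552, and stood at 375 and 741 by days 7 and 28. Me1, malic enzyme, a source of NADPH, had 285 and 687, against 120 and 179. None of these passed limma's test, with adjusted p of 0.135 for Taldo1, 0.365 for Elovl1, 0.435 for Tkt and 0.274 for Me1. The list members without a call, chosen after their values were seen, included Acly, ATP citrate lyase, with 2280 and 3030 against 3250 and 2420, and Elovl6, an elongase of shorter chains, with 158 and 247 against 299 and 320. On the short list of cholesterol synthesis, 2 of 6 genes were higher. Hmgcs1, which makes HMG-CoA, had 2270 and 2910, against 520 and 839 (1.96, adjusted p = 0.0998), and a second, dimmer probe set of the gene gave a log2 difference of 0.37. Sqle, squalene epoxidase, had 251 and 415, against 114 and 143.

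Slc5a6, the sodium-dependent transporter of the vitamins biotin and pantothenate, rose 9.57-fold. Its intensities were 4270 and 4470 at days 2 and 3, against 497 and 419 at 12 and 24 hours, a log2 difference of 3.26 ± 0.33 (adjusted p = 0.01). The 2 values of each side lay close together. It was 195 and 246 before induction and stood lower again later, at 3620, 2280 and 1160 at days 4, 7 and 28. Pcx, pyruvate carboxylase, an enzyme that carries biotin and feeds the citric acid cycle with oxaloacetate, had 1560 and 1570, against 427 and 567 (1.67, adjusted p = 0.153).

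Mitochondrial genes were higher as broad groups, mostly by small amounts. Of 37 tested genes of oxidative phosphorylation, 30 were higher without overlap of the sides and 0 lower, while 5 reached a 2-fold difference. Over all genes, 18.9% were higher and 22.9% lower without overlap, and 4.59% were higher by at least 2-fold. Their median log2 difference was 0.61, and 31 of the 37 were higher at day 3 than at day 2. The list members past 2-fold were Uqcrfs1, Uqcrc2, Uqcrc1 and Cyc1 of complex III, the cytochrome c reductase, and Atp5g1 of the ATP synthase, the last named after its value was seen. Uqcrfs1, the Rieske iron-sulfur protein, had 3540 and 4760, against 371 and 763, and rose 7.72-fold (log2 2.95 ± 0.40, adjusted p = 0.0365). Uqcrc2, a core protein of the same complex, had 864 and 1350, against -123 and 204, and rose at least 6.48-fold (log2 2.70 ± 0.39, adjusted p = 0.0461). Uqcrc1, the other core protein, had 1250 and 2480, against -729 and 571 (2.66, adjusted p = 0.271), and Cyc1, cytochrome c1, had 5260 and 8050, against 2810 and 3090 (1.14, adjusted p = 0.258). For these 4 genes the sides did not overlap, and Uqcrc1 had a wide gap between 12 and 24 hours. Uqcrq and Uqcrb, complex III subunits on the list named after their values were seen, had no call, with log2 differences of 0.88 and 0.46. Uqcr10 and Uqcr11, complex III subunits that are not on the list and were named after their values were seen, were higher. Uqcr10 had 4800 and 7200, against 1860 and 3610 (1.18, adjusted p = 0.361), and Uqcr11 had 5620 and 7940, against 2550 and 3690 (1.12, adjusted p = 0.316). Mtres1, a mitochondrial protein that acts in transcription of the organelle's genome, had 386 and 424, against 88 and 153, and rose at least 2.59-fold (log2 1.37 ± 0.17, adjusted p = 0.0461).

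Fatty acid oxidation and the citric acid cycle moved the same way as storage. Of 20 tested genes of fatty acid oxidation and the peroxisome, 11 were higher and 0 lower, with a median of 1.07, and by non-overlap alone 18 were higher and 1 lower. Cpt2, the inner-membrane carnitine palmitoyltransferase, had 704 and 736 at days 2 and 3, against 123 and 242 at 12 and 24 hours (1.99). Crat, carnitine acetyltransferase, had 2650 and 2980, against 765 and 815 (1.83), and its second probe set gave 2.85. Acadm, the dehydrogenase of medium-chain acyl-CoA, had 1990 and 3500, against 653 and 917 (1.77), with 1.57 from its probe set on the other array type. Pex14, a peroxisomal import protein, had 1140 and 488, against -841 and 313. The gene lower without overlap was Cpt1a, the liver form of the outer-membrane carnitine palmitoyltransferase, with 335 and 313 against 708 and 412, named after its values were seen. Cpt2, Crat, Acadm and Pex14 did not pass limma's test, with adjusted p between 0.116 and 0.331.

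Among 16 tested genes of the citric acid cycle and pyruvate use, 6 were higher and 0 lower, with a median of 0.80. Idh3a, a subunit of the NAD-dependent isocitrate dehydrogenase, had 1190 and 1460, against 289 and 363 (2.02, adjusted p = 0.116). Aco1, the cytosolic aconitase and iron regulatory protein, had 2830 and 4150, against 1040 and 1050 (1.71). Mdh1, cytosolic malate dehydrogenase, had 4460 and 8040, against 2170 and 1590 (1.69). The sides were well apart for all of these. Glycolysis showed less, with 4 of 18 genes higher, 0 lower and a median of 0.17. The higher ones were Ldhb, a lactate dehydrogenase subunit, with 3370 and 5850 against 295 and 830 (3.17), Hk2, a hexokinase, with 3380 and 3670 against 1770 and 1350 (1.19), Pfkfb3, which makes the activator fructose 2,6-bisphosphate, with 769 and 2120 against 767 and 513, and Pygb, a glycogen phosphorylase, with 1660 and 2500 against 1060 and 946. Day 2 of Pfkfb3 exceeded 12 hours by only the last digit shown. Ldha, the other common subunit of lactate dehydrogenase, had 9290 and 9380 against 8760 and 9110, given here beside Ldhb after its value was seen.

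**Figure D3:**
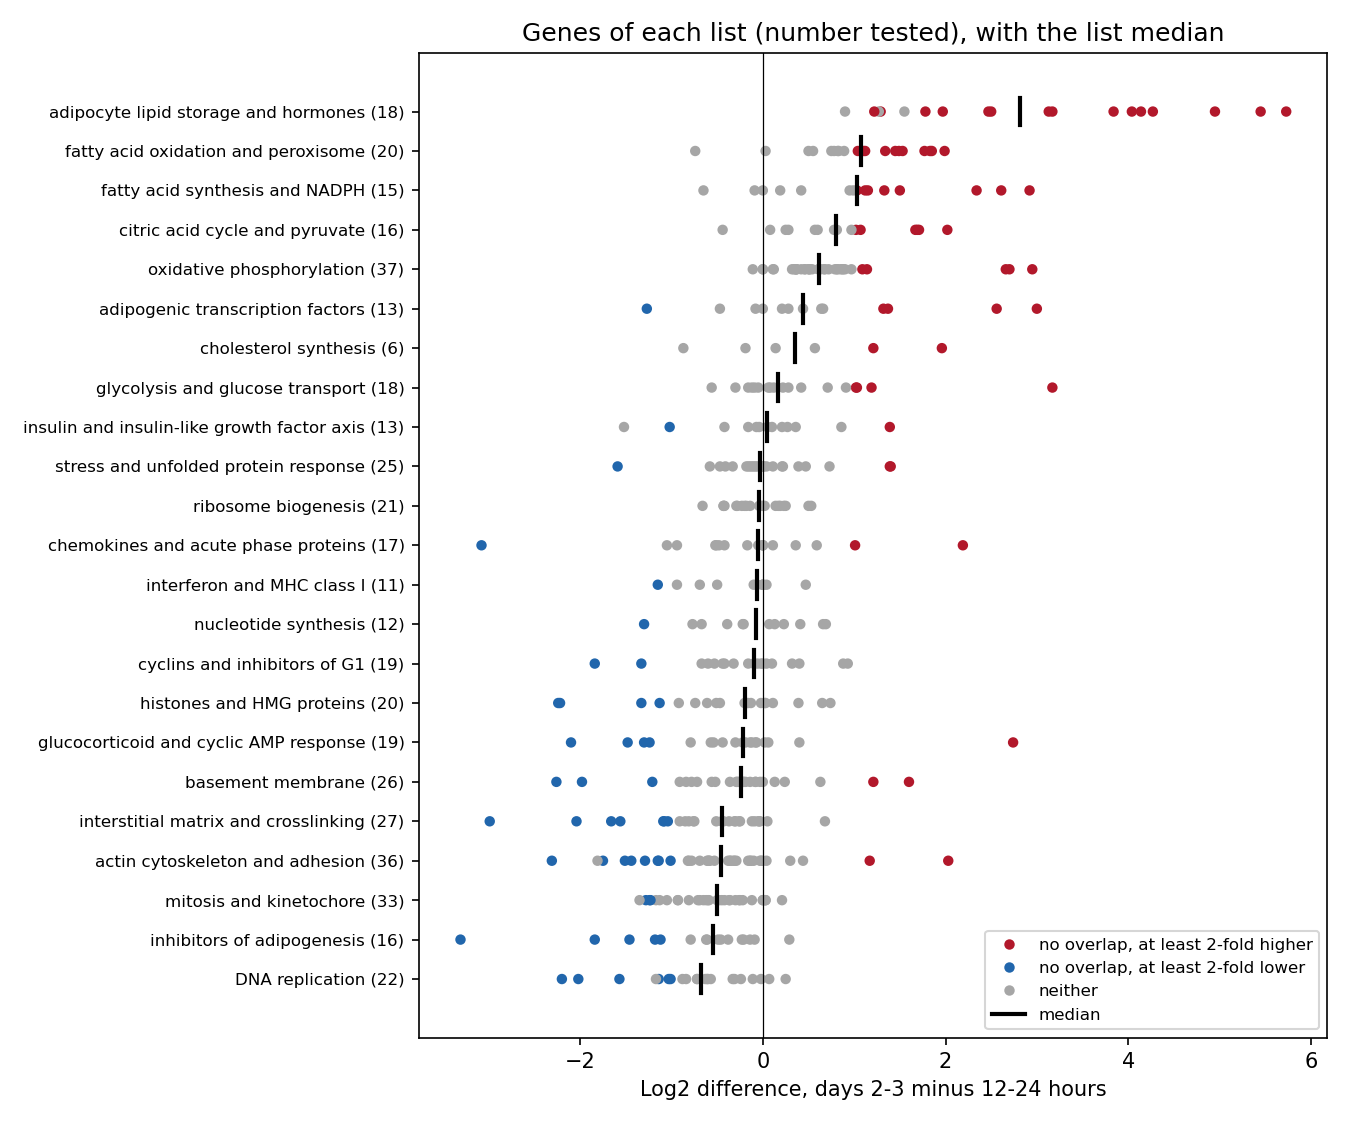
Each point is 1 tested gene of a list, placed by its log2 difference between the means of days 2 and 3 and of 12 and 24 hours, with the number tested beside the list's name and a black bar at the list's median. Red and blue points do not overlap between the sides and differ by at least 2-fold; the adipocyte list has its median at 2.82 and the DNA replication list at -0.68.

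Hormone response, growth factor and stress genes had calls in both directions. Hsd11b1, the enzyme that turns inactive cortisone-type steroids into active glucocorticoid, had 4550 and 8050 at days 2 and 3, against 565 and 1460 at 12 and 24 hours (2.74, adjusted p = 0.121). It was the 1 gene higher among 19 tested genes of the glucocorticoid and cyclic AMP list, in which 4 were lower and the median was -0.22. Ass1, argininosuccinate synthase of arginine synthesis, had 1950 and 1500, against 8600 and 6270, and fell by 2.10 ± 0.24 on the log2 scale, 4.29-fold (adjusted p = 0.0365). Mt2, a metal-binding metallothionein induced by glucocorticoid, had 12500 and 4860, against 29300 and 16100 (-1.48), and Dusp1, a phosphatase of MAP kinases, had 1250 and 442, against 1830 and 1830 (-1.30). Mt2 was highest of all time points at 6 hours, with 43500, as was Dusp1, with 4730. The last lower gene, Jun, was named after its values were seen and had 179 and 130 against 283 and 551. In the insulin and insulin-like growth factor list, Akt2, the insulin-responsive kinase, was higher, with 896 and 1000 against 385 and 340, and Socs3, an inhibitor of cytokine signalling, was lower, with 122 and 168 against 353 and 268, among 13 tested genes with a median of 0.05. Of 25 genes of stress and the unfolded protein response, 2 were higher, Xbp1 with 1430 and 2250 against 1030 and 456, and Dnajb9 with 321 and 403 against 39 and 103. In the same list Gadd45b was lower, with 220 and 155 against 547 and 571 (-1.59, adjusted p = 0.0788). The median of that list was -0.03. Over all genes 4.59% were higher and 4.81% lower, so the few calls of the insulin and stress lists describe single genes and not the lists.

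Ptx3, Lox and Serpinf1, which encode secreted proteins, were among the 5 genes that fell. Ptx3, a long pentraxin made in inflammation and in matrix assembly, had 166 and 90 at days 2 and 3, against 1580 and 1170 at 12 and 24 hours. It fell by 3.08 ± 0.20 on the log2 scale, at least 8.45-fold (adjusted p = 0.00775). Lox, lysyl oxidase, which crosslinks collagen and elastin, had 341 and 417, against 3510 and 2570, and fell by 2.99 ± 0.35, 7.96-fold (adjusted p = 0.0215). Serpinf1, the secreted anti-angiogenic factor PEDF, had 627 and 627, against 5460 and 3510, and fell by 2.80 ± 0.36, 6.98-fold (adjusted p = 0.0273). The 3 genes had been high in all 5 samples up to 24 hours, and each step fell between 24 hours and day 2. At day 28 Serpinf1 stood at 4150, within its range at 12 and 24 hours, while Lox stood at 1230 and Ptx3 at 257, both below theirs.

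Interstitial matrix genes as a list had 7 of 27 lower and 0 higher, with a median log2 difference of -0.45. Col1a1, the main chain of type I collagen, had 4050 and 6540, against 25200 and 10500 (-1.66, adjusted p = 0.229), and its other probe sets gave -0.63 and -0.71. Fstl1, a secreted follistatin-like glycoprotein, had 2250 and 1030, against 7070 and 5530 (-2.04), and Vcan, the large proteoglycan versican, had 5470 and 2070, against 11000 and 8940 (-1.56). Both were still lower at days 4, 7 and 28. Timp1 and Timp2, inhibitors of matrix metalloproteases, were lower in the basement membrane list. Timp1 had 1820 and 1790, against 8760 and 8490 (-2.26, adjusted p = 0.109), and stood at 8270 again at day 28. Timp2 had 1140 and 100, against 2020 and 1370 (-1.98), so its drop lay mostly at day 3. In contrast Col15a1, a collagen that joins the basement membrane to the matrix, was higher, with 248 and 683 against -59 and 18, and stood between 1250 and 1650 at days 4, 7 and 28. Counting the whole basement membrane list, 3 of 26 genes were lower and 2 were higher, with a median of -0.24.

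Surface and cytoskeletal genes were lower more often than higher. Of 36 tested genes of actin and adhesion, 8 were lower and 2 higher, against 4.81% and 4.59% of all genes. Without overlap, whatever the size, 22 were lower and 3 higher, against 22.9% and 18.9% of all genes. Thy1, a surface protein of fibroblasts, had 2500 and 1580, against 9880 and 7760 (-2.14, adjusted p = 0.172). Itga5, the integrin chain that binds fibronectin, had 154 and -301, against 1630 and 365 (-2.31). Zyx, zyxin of focal adhesions, had 774 and 505, against 2180 and 2020 (-1.75), and Tpm4, a tropomyosin, had 1510 and 1200, against 4690 and 3130 (-1.51). Itga6, the integrin chain that binds laminin, ran the other way, with 1670 and 2940 against 601 and 489 (2.03, adjusted p = 0.321). Itga5 and Itga6 were read on the same array type, and neither overlapped between the sides.

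**Figure D4:**
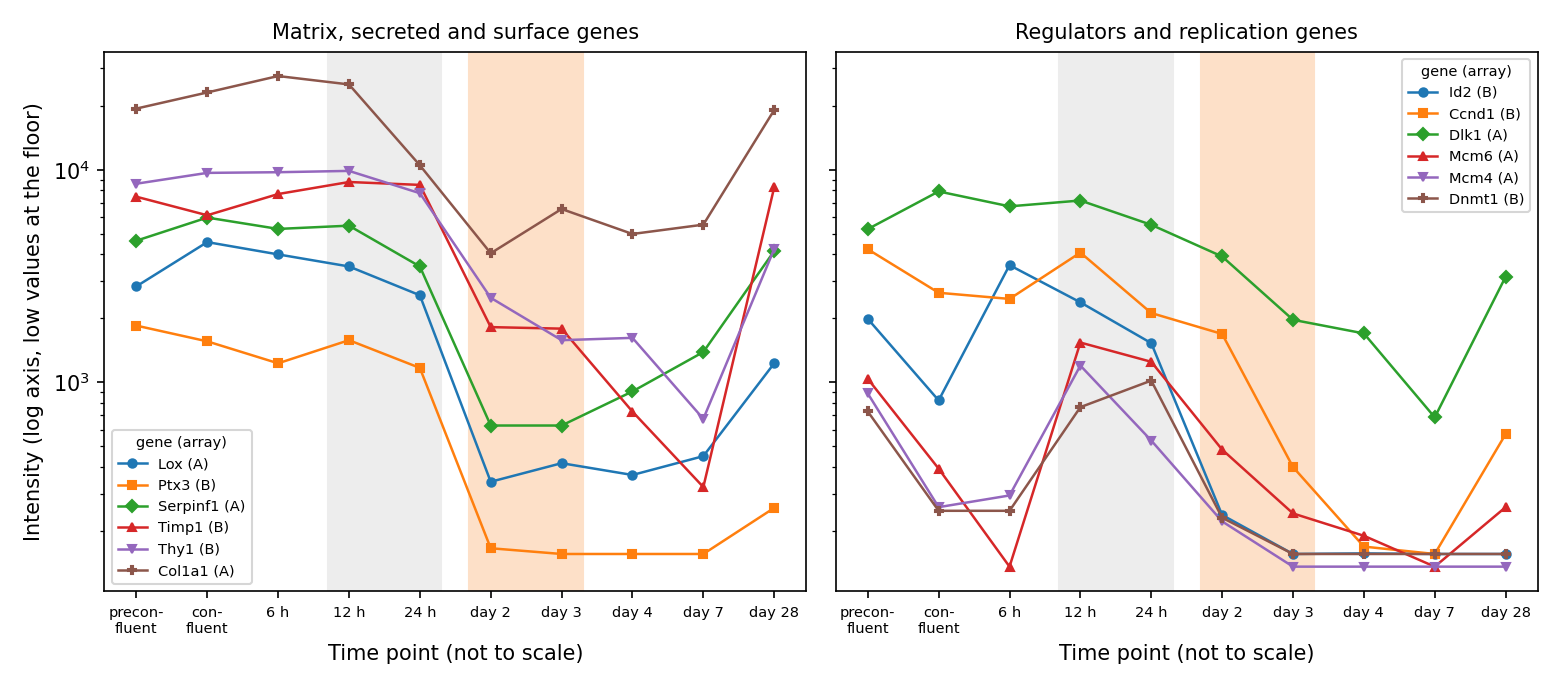
Deposited intensity on a log axis at the 10 time points, in order but not to scale, for 12 genes lower at days 2 and 3 (orange band) than at 12 and 24 hours (grey band), with values below the floor drawn at it. Lox, Ptx3 and Serpinf1 drop between 24 hours and day 2, Timp1 is back at 8270 by day 28, and Mcm6, Mcm4 and Dnmt1 have a peak at 12 to 24 hours that follows low values in confluent cells and at 6 hours.

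Inhibitors of adipogenesis were lower or short of a call. Of 16 tested genes, 5 were lower and 12 were lower without overlap, with 0 higher by either count and a median of -0.55. The shares over all genes were 4.81% lower by size and 22.9% lower without overlap. Id2, which blocks helix-loop-helix transcription factors, had 238 and 133 at days 2 and 3, against 2380 and 1530 at 12 and 24 hours. Its log2 difference of -3.31 ± 0.46, at least 9.9-fold, did not pass the test (adjusted p = 0.0609). Id3, of the same family, had 351 and 200, against 613 and 865 (-1.46). Dlk1, the preadipocyte factor Pref-1, had 3910 and 1970, against 7170 and 5510 (-1.18), and reached its lowest value, 685, at day 7. The other lower genes of the list were Ccnd1, given with the G1 regulators, and Foxc2, named after its values were seen, with 855 and 271 against 1170 and 936. Wnt4, a secreted Wnt ligand that is on none of the lists, had -120 and -438, against 372 and 392, and fell by 1.29 ± 0.15 on the log2 scale, at least 2.45-fold (adjusted p = 0.0367). It was below the floor at all 8 other time points, and a second probe set of the gene had 85 and -264 against 680 and 118. In that probe set 24 hours, day 2 and day 3 were all below the floor, so the sides were not separated (limma adjusted p = 0.68). Gnao1, a G protein alpha subunit named after its value was seen, had 1 probe set among the falls, with 102 and -201 against 507 and 675 (adjusted p = 0.0215). The gene's brighter probe set had 340 and 123 against 615 and 576 and did not pass limma's test (adjusted p = 0.339).

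DNA replication genes were lower as a group. Of 22 tested, 6 were lower and 14 were lower without overlap, against 4.81% and 22.9% of all genes. By either count 0 were higher, and the median log2 difference was -0.68. Mcm4, Mcm6 and Mcm2 are subunits of the MCM helicase that opens DNA at replication origins. Mcm4 had 222 and 136 at days 2 and 3, against 1200 and 533 at 12 and 24 hours (-2.20), Mcm6 had 483 and 242, against 1540 and 1250 (-2.02), and Mcm2 had 598 and 232, against 1290 and 944 (-1.57). The catalytic subunit of DNA polymerase delta, Pold1, had -111 and -209, against 288 and 408 (-1.14, adjusted p = 0.135). Prim1 and Dbf4, named after their values were seen, were the other lower ones, with 414 and 293 against 705 and 720, and 175 and 55 against 281 and 345. Pcna, the sliding clamp, had 1880 and 1190, against 2130 and 2430, without overlap but short of 2-fold (-0.61). Dnmt1, the maintenance DNA methyltransferase, had 231 and -1, against 765 and 1020 (-2.22, adjusted p = 0.199), and Rrm1, the large subunit of ribonucleotide reductase, had 534 and 353, against 903 and 1260 (-1.30). Day 2 was already below both earlier time points for each of these genes, and 17 of the 22 replication genes had a lower value at day 3 than at day 2.

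For mitotic genes, 12 and 24 hours were far apart. Relative to the mean of those 2 time points, the median of 33 tested genes was -0.73 at 12 hours and 0.73 at 24 hours, then -0.38 at day 2, -0.64 at day 3 and -1.35 at day 4. Mki67, the proliferation marker Ki-67, had 1370 and 1270 at days 2 and 3, against 909 and 4490 at 12 and 24 hours, and Ccna2, cyclin A2, had 1490 and 1230, against 1060 and 3470. Their sides overlapped, and without 24 hours the log2 differences of -0.62 and -0.50 became 0.54 and 0.35. Top2a, which untangles chromosomes, had 855 and 260, against 817 and 1160, also with overlap. By the size rule 3 of the 33 were lower, against 4.81% of all genes. Those were Prc1, which bundles microtubules in the dividing cell's midzone, with 208 and 245 against 277 and 1080 (-1.28), Aurkb, a kinase of the same structure, with 56 and 139 against 155 and 679 (-1.24), and Racgap1, a protein of the centralspindlin complex there, with 1170 and 868 against 1820 and 3060 (-1.23). The smallest gap between the sides was 0.18 for Prc1 and 0.16 for Aurkb on the log2 scale. All 3 take part in the last steps of cell division. Ect2, Kif20a, Incenp and Anln of the same list act there too and had no call (-0.45, -0.48, -0.26 and -1.17). They were named after their values were seen.

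Promoter windows were searched because replication and mitotic genes move in groups and are textbook targets of E2F factors and of the CCAAT-binding factor NF-Y. The windows were the 250 bases upstream of the annotated start in RefSeq on GRCm38.p6, read on both strands. The CCAAT letters stood in 24 of 29 windows of the tested mitotic genes (82.8%) and in 15 of 26 windows of the tested replication genes (57.7%), against 33.8% of all 32851 windows. The E2F letters TTTCCCGC, TTTCGCGC, TTTGGCGC or TTTGCCGC stood in 1 mitotic window (3.4%) and 3 replication windows (11.5%), against 1.9% of all windows. These shares count list members whether or not they were called lower. For the replication genes called lower, the E2F letters stood in 1 of 5 windows, that of Mcm6, and CCAAT in 3. For the mitotic genes called lower, the E2F letters stood in 0 of 3 windows and CCAAT in all 3. Over all genes called by size, CCAAT stood in 36.1% of the windows of lower genes and 38.9% of those of higher genes. For the E2F letters the shares were 2.5% and 2.9%. Windows were found for 26 of the 33 mitotic and 20 of the 22 replication genes, and some genes have several that can overlap. The windows of Mcm6, Prc1 and Racgap1 are shown as examples of the lower genes, Mcm6 with both kinds of letters and the other two with CCAAT alone, with the matches in capitals. They lie at chr1:128359706-128359955 on the minus strand for Mcm6, chr7:80294201-80294450 on the plus strand for Prc1 and chr15:99651657-99651906 on the minus strand for Racgap1.
Mcm6: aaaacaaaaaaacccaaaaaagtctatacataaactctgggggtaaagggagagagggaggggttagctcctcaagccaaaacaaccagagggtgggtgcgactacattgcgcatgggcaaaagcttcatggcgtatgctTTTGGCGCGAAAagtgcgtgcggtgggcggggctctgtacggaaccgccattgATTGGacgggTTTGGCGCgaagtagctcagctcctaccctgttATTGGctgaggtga
Prc1: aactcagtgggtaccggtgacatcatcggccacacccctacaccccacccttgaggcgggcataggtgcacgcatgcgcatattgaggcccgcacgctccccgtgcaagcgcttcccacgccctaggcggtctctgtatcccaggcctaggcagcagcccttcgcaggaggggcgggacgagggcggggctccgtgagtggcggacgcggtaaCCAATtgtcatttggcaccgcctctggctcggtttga
Racgap1: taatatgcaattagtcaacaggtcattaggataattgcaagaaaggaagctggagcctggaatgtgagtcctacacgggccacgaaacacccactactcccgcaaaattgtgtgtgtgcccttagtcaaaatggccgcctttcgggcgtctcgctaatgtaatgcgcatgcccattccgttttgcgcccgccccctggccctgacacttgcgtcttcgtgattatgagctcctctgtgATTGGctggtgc
In Mcm6 the E2F letters begin 110, 106 and 47 bases before the start, the first 2 overlapping each other on opposite strands, and CCAAT on the reverse strand begins 57 and 14 bases before it. Prc1 has CCAAT 37 bases before the start, and Racgap1 has it on the reverse strand 12 bases before. A match is a description of letters and not a measured binding site. The letters of C/EBP sites, TTGCNNAA, stood in 10.6% of the windows of all higher genes and 11.4% of those of all lower genes, against 9.6% of all windows.

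Regulators of the G1 phase were split. Ccnd1, cyclin D1, had 1690 and 400 at days 2 and 3, against 4080 and 2120 at 12 and 24 hours (-1.84, adjusted p = 0.423). Cdkn1b, the cell cycle inhibitor p27, was also lower, with 321 and 242 against 460 and 1060 (-1.33). Cdkn1a, the inhibitor p21, had 1470 and 1750 against 1430 and 1040, a log2 difference of 0.40. Among 19 tested genes 2 were lower and 0 higher, with a median of -0.10. In the list of histones and HMG proteins 4 of 20 were lower and 0 higher: besides Dnmt1, these were Hmga2, an architectural chromatin protein of growing cells, with 438 and 188 against 2470 and 749 (-2.24), Ezh2, the methyltransferase of Polycomb complex PRC2, with 246 and 115 against 572 and 369, and Hmgb2, with 536 and 313 against 541 and 1480. For Hmgb2, day 2 lay below 12 hours by only 0.01 on the log2 scale. Ribosome biogenesis had 0 of 21 genes called in either direction and a median of -0.04.

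Fewer genes stood out in the immune lists. Hp, haptoglobin, an acute phase protein that fat cells secrete, had 993 and 3290, against 177 and 881 (2.19, adjusted p = 0.43), and Cp, ceruloplasmin, had 310 and 564, against 203 and 212. They were the 2 genes higher among 17 chemokines and acute phase proteins, with Ptx3 as the 1 lower gene. H2-D1, a heavy chain of MHC class I, was the 1 gene called among 11 of the interferon and MHC list, with 1700 and 1690 against 4110 and 3420 (-1.15). Its other probe sets were lower too, by -1.99 for the dimmest, and all are marked as shared by a gene family. It stood at 7930 at day 28.

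The differences were unevenly spread over days 2 and 3. Of the 304 higher probe sets, 159 (52.3%) were already at least 2-fold above both 12 and 24 hours at day 2, against 4.88% of all tested probe sets in either direction, and 51 (16.8%) were a further 2-fold higher at day 3 than at day 2, against 4.5% of all tested probe sets. Of the 309 lower ones, 132 (42.7%) were at least 2-fold below at day 2, and 62 (20.1%) were a further 2-fold lower at day 3, against 4.18%. The same 4 time points chose these probe sets, so part of each excess is built in and the shares are a description with no test. Lipe, Slc5a6 and Idh3a had nearly reached their day 3 level at day 2, whereas Adipoq, Gpd1 and Fabp4 had not. On the falling side, Lox, Serpinf1 and Timp1 had nearly reached theirs at day 2, and Ccnd1, Timp2 and Vcan had not.

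Most of the differences were still present later. Among the higher probe sets, days 4 and 7 were both above 12 and 24 hours for 264 of 304 (86.8%, against 23.5% of all tested), and day 28 was for 262 (86.2%, against 35% of all tested). The highest value of all 10 time points fell at day 4 for 114 of them (37.5%), at day 7 for 56 and at day 28 for 53, and at day 2 or day 3 for 28 and 40. Among the lower probe sets, days 4 and 7 were both below for 257 of 309 (83.2%, against 25.9%) and day 28 was for 258 (83.5%, against 39.7%). For 51 lower probe sets (16.5%), among them those of Serpinf1 and H2-D1, day 28 was back at or above the lower of 12 and 24 hours. Timp1 stayed just below that limit, with 8270 at day 28 against 8490 at 24 hours. Cells before induction resembled the earlier side more often: both preconfluent and confluent cells lay below days 2 and 3 for 241 of the higher probe sets (79.3%, against 18.6%), and above days 2 and 3 for 185 of the lower ones (59.9%, against 24.1%). These shares use the 12 and 24 hour or day 2 and 3 values that chose the probe sets, so they are a description with no test.

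**Figure D5:**
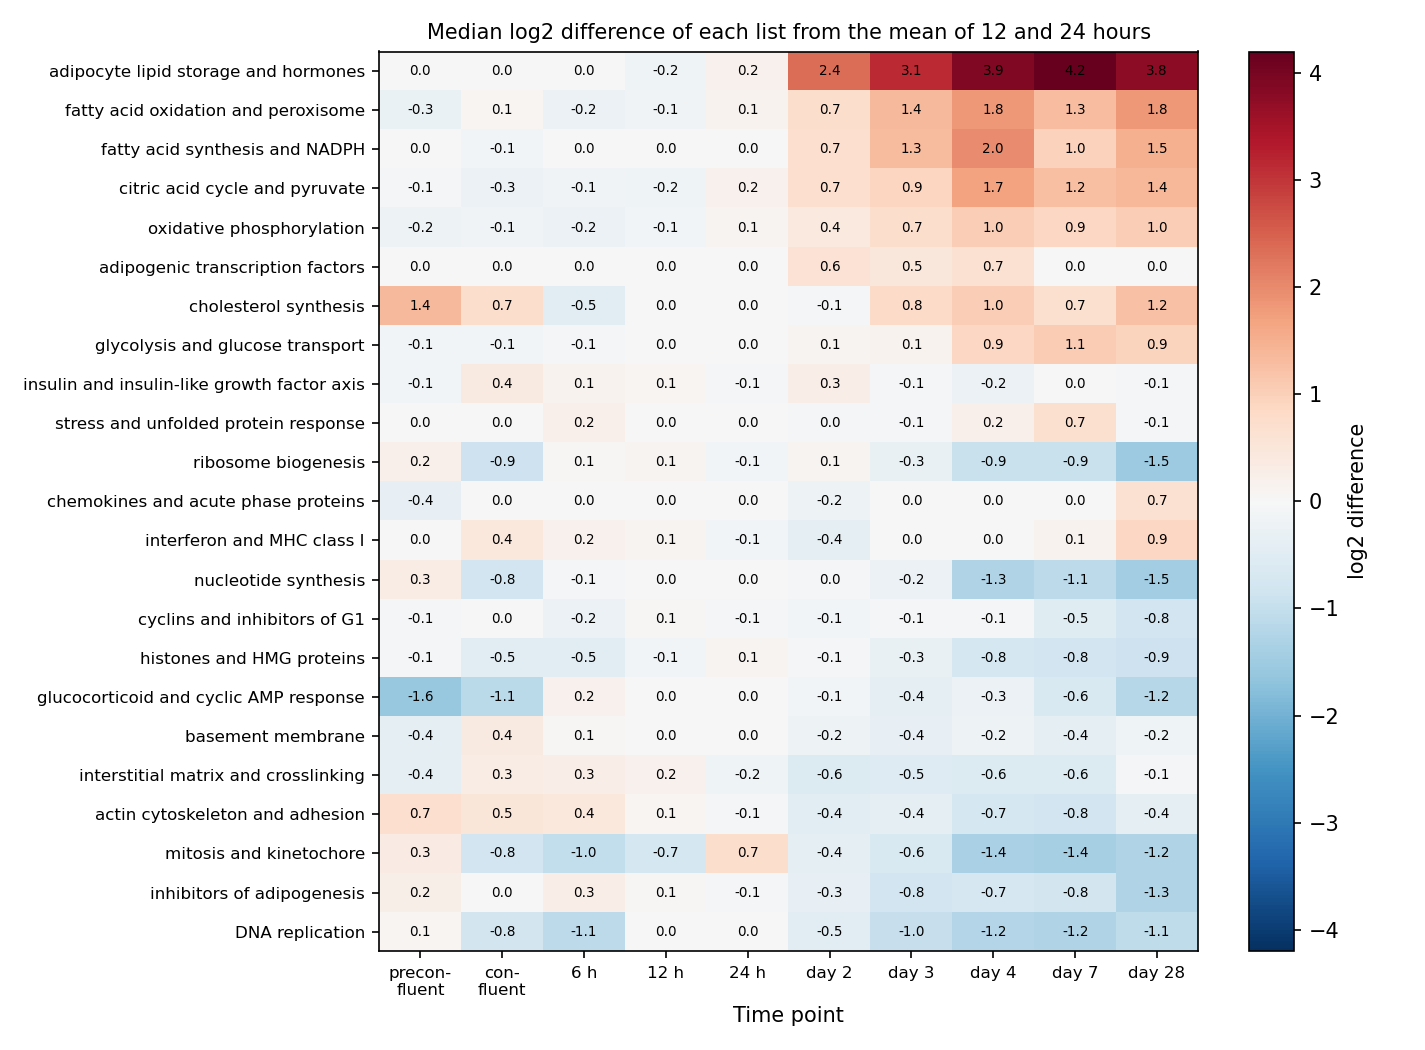
Median log2 difference of each gene list from the mean of 12 and 24 hours at the 10 time points, from blue (lower) to red (higher), with the value in each cell rounded to 1 decimal. The adipocyte list is at 0.0 before induction and at 3.9 at day 4, the mitosis list changes sign between 12 and 24 hours, and the interstitial matrix list is at -0.57 at day 7 and -0.05 at day 28.

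Marker genes of cell types went with the labels. The marker lists repeat genes given above and were chosen with earlier results of these data known. Their direction is a description and no independent evidence. Of 8 tested adipocyte markers, 7 were higher, against 4.59% of all genes. The summed intensity of the 8 was 26561 and 66210 at days 2 and 3, against 1478 and 3146 at 12 and 24 hours. Of 12 tested fibroblast and preadipocyte markers, 6 were lower, against 4.81% of all genes, and 0 were higher. The sums of the 12 were 40816 and 42418, against 92017 and 67244. Vim, vimentin of fibroblasts, changed little in size, with 6780 and 7410 against 7890 and 7730, and was named after its value was seen. In RNA from whole cultures, fewer cells of a kind and less RNA per cell cannot be told apart. Macrophage markers had 0 of 8 tested genes called and sums of 4870 and 4204, against 6011 and 4080, and Adgre1, Csf1r and C1qa were too dim to be tested. Endothelial markers had 0 of 5 called and sums of 1754 and 1760, against 1536 and 1556, and none of 4 bone and cartilage markers on the arrays was bright enough to be tested. Of 9 skeletal muscle markers, 1 was lower, Chrna1, a subunit of the acetylcholine receptor, with 136 and 55 against 353 and 347, and the sums were 6912 and 5784, against 5294 and 7293. Brown fat markers had 2 tested genes and 0 called, and Ucp1 and Cidea were too dim to be tested.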

How the data were processed

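Messenger RNA of 3T3-L1 cells was measured at 10 time points on 2 array types, 1 sample each. Per the labels' protocols, RNA was extracted with Trizol and 10 µg was turned into biotin-labelled cRNA. Linear intensities were deposited for every probe set, on a common scale as the trimmed means show, and 24.2% of them on array A and 30.4% on array B were below 0. Software, version and genome build are not given in the sources used here. The deposited scaling was kept.

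The 110 control probe sets were left out. Of 13179 probe sets, 7542 had 1 gene symbol in the platform annotation, 224 had several and 5303 had none, and only the first were named. Values below the floor (the 10th percentile with its sign turned) were set to it, log2 was taken, and probe sets were kept (4050 and 3532) that exceeded, in 2 or more time points, a limit of 182 for array A and 156 for array B. A gene was read from its brightest probe set.

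Each array type was fitted with limma 3.58.1 in R 4.3.3 on all 10 time points in 6 groups (before induction, 6 hours, 12-24 hours, days 2-3, days 4-7, day 28), with 4 residual degrees of freedom and Benjamini-Hochberg adjustment over both. The fit was tested on simulated data. With intensities and no counts, the number of arrays limits the precision. Folds are ratios of geometric means after the floor, written "at least" where the dimmer side has a value at the floor. Log2 differences are later minus earlier.

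Named genes were the 12 largest rises and falls that passed limma without overlap, up to 4 of the largest 2-fold differences without overlap in each of 30 lists, and a fixed set of regulators and cell cycle genes; others are marked as chosen after their values were seen. The members and lists were chosen with earlier results of these data known. Of the 89 genes of the rule, 13 come from family-shared probe sets, by the maker's suffix: Acadm, Ass1, Ccnd1, Cdkn1a, Col1a1, Crat, Fabp4, H2-D1, Ldhb, Mcm6, Mdh1, Mt2 and Top2a. Alternatives were other floors, filters and scalings, other samples in the fit, a 3-fold limit and leaving out each time point. Promoter sequences came from RefSeq (GRCm38.p6).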

Additional observations from a re-analysis of the deposited data

How the results depend on the processing

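No time point had a replicate, and the tested counts depended on the processing. limma called 7 probe sets up and 4 down with a floor 2 times as high, 28 up with a filter of at least 5 time points, 2 up and 0 down with only the 4 time points compared (496 and 549 at an unadjusted p under 0.05), and 3 up and 4 down without preconfluent and confluent cells, against 18 and 8. Among these calls, 5, 22, 2 and 4 in that order of settings belonged to the original 26. Of the 13 genes that rose or fell, 12 kept their call with that filter. Slc5a6 alone kept its call with the higher floor, Ptx3 alone without preconfluent and confluent cells, and none with only the 4 time points. Leaving out 1 time point gave 1 to 22 up and 0 to 3 down. The last choice leaves 1 time point on a side, which is assumed to vary like the others. The counts by size were 197 higher and 178 lower with a floor 2 times as high and 111 and 68 at a limit of 3-fold, against 304 and 309. Leaving out 1 time point gave 290 to 513 higher and 306 to 537 lower, and the cause was not tested. Quantile normalization kept 582 of the 613 calls by size and all 26 limma calls. The log2 difference turned positive for Ccna2 (0.35), Cebpd (0.33) and Mki67 (0.54) without 24 hours, and for Cebpb (0.04) without day 3. With 1 time point left out it ran between -1.36 and 0.35 for Ccna2, -0.48 and 0.33 for Cebpd, -1.77 and 0.54 for Mki67, and -0.97 and 0.04 for Cebpb. No paired analysis was possible because replicate numbers only order the time points of a side, and pairing them would pair nothing shared. For probe sets near the floor only a bound on the difference is known.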

Other observations

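Several large differences belonged to genes outside the lists, all chosen after their values were seen. Bcat1, the cytosolic aminotransferase of branched-chain amino acids, had 94 and 124 at days 2 and 3, against 1740 and 801 at 12 and 24 hours (log2 -2.92, limma adjusted p = 0.153). Fst, follistatin, which binds activin, had 1000 and 400, against 3600 and 2390 (-2.21), and Fgf7, keratinocyte growth factor, had -69 and -33, against 1160 and 466 (-2.24). Snai2, the transcription factor Slug, had 167 and 124, against 480 and 596 (-1.83, adjusted p = 0.0599). Pltp, the phospholipid transfer protein, had 127 and 71, against 1230 and 415 (-2.39), and stood at 2940 at day 28. Cavin2, a coat protein of caveolae, ran the other way, with 638 and 2490 against 199 and 155 (2.84, adjusted p = 0.148). Mgst3, a microsomal glutathione transferase, had 8150 and 9150, against 1310 and 2530 (2.25, adjusted p = 0.0912). None of these genes overlapped between the sides, and none passed the test.

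Of the 26 probe sets that passed limma's test, 12 had no single gene symbol and are left unnamed here. The smallest adjusted p, 0.000129, belonged to one of them on array B. It had 7550 and 8220 at days 2 and 3, against -829 and -99 at 12 and 24 hours, a rise of at least 50.5-fold, and stood at 4760 at day 28. Among the falls without a name, 1 probe set of array B had 687 and 824, against 5910 and 3960, and was back at 4280 at day 28.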
